A study of Mus musculus with 13 samples.

Results

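The Hox genes were examined across 13 mouse bead arrays of cultured and transplanted neural stem cells and their reference cells. Members were all probes whose annotated gene symbol is Hox, a cluster letter from a to d, and a paralog number, which found 50 probes of 38 genes among 25697 probes on the array. Hoxa had 17 probes of 10 genes, Hoxb 13 of 10, Hoxc 11 of 9 and Hoxd 9 of 9. Of these genes, 9 had more than 1 probe.

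The strain label of every sample was C3H. Of the cultures, 3 were sampled as 3 clones with 1 array a clone: neural stem cells (NSC), induced neural stem cells made from mouse embryonic fibroblasts (iNSC), and neural progenitors derived from embryonic stem cells (ESC NPC). Single arrays stood for the mouse embryonic fibroblasts (MEF), for the pluripotent line (ESC), and for the in vivo states of both NSC and iNSC. The iNSC in vivo were labelled as transplanted into adult mouse brain, with the number 14 and no unit for the interval, and the NSC in vivo label names no transplantation. The labels do not name the factors used for induction, the brain region of the NSC, or any sort of the cells from brain. Whether clones came from separate animals is not stated, so p-values measure the spread between these clones, and the fit lends the clones' spread to each group that has a single array.

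Hox genes encode homeodomain transcription factors that lie in clusters, in an order along the chromosome that matches the order of their expression along the body axis. Low paralog numbers are used in the hindbrain and neck, middle numbers in the trunk, and high numbers in the tail, limb and genital regions. The embryonic forebrain, from which many neural stem cell lines are made, normally keeps the clusters silent under Polycomb proteins, while fibroblasts keep the Hox code of the body site they came from.

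Levels are background-corrected, quantile-normalized intensities on a log2 scale, and a probe was called detected on an array when the authors' detection p-value was under 0.01. Differences are log2 values with the standard error of limma, with two-sided tests and p-values adjusted by Benjamini-Hochberg across 15049 probes at a threshold of 0.05. Of the 50 Hox probes, 26 were detected on at least 1 array and tested, and 24 were detected on none. Arrays of cultured cells detected 40.8% to 49.9% of all probes, whereas the in vivo arrays detected 26.7% (NSC) and 26.2% (iNSC). Of 8 neural stem cell markers, 7 were detected on each NSC and iNSC array and 6 on each ESC NPC array, with Msi1 below background in all of these. The MEF array detected 7 of the 8 as well, at a mean level of 7.68 against 8.55 to 9.01 on NSC and 8.61 to 8.84 on iNSC, so these counts do not set the neural cultures apart from fibroblasts. All 6 pluripotency markers, among them Pou5f1 and Nanog, were also detected on each ESC NPC array, at a mean level of 9.07 to 9.19 against 11.11 on ESC. Of the 8 neural stem cell markers, 3 were detected on the NSC in vivo array and 2 on the iNSC in vivo array. Sox2, Nes, Fabp7, Olig2 and Msi1 were below background on both, and Sox9 on iNSC in vivo.

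Cultured NSC had almost no Hox signal, whereas iNSC and MEF had many Hox genes from all clusters. NSC detected 1, 3 and 1 Hox probes on their 3 arrays, of which Hoxa13 was the gene shared by all 3 clones. The iNSC arrays detected 19, 19 and 20 probes and MEF 23. ESC NPC lay between, with 12, 14 and 15. ESC detected 3 probes, of Hoxa13, Hoxc13 and Hoxd11. In vivo, 1 probe was detected for NSC and 8 for iNSC.

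**Figure D1:**
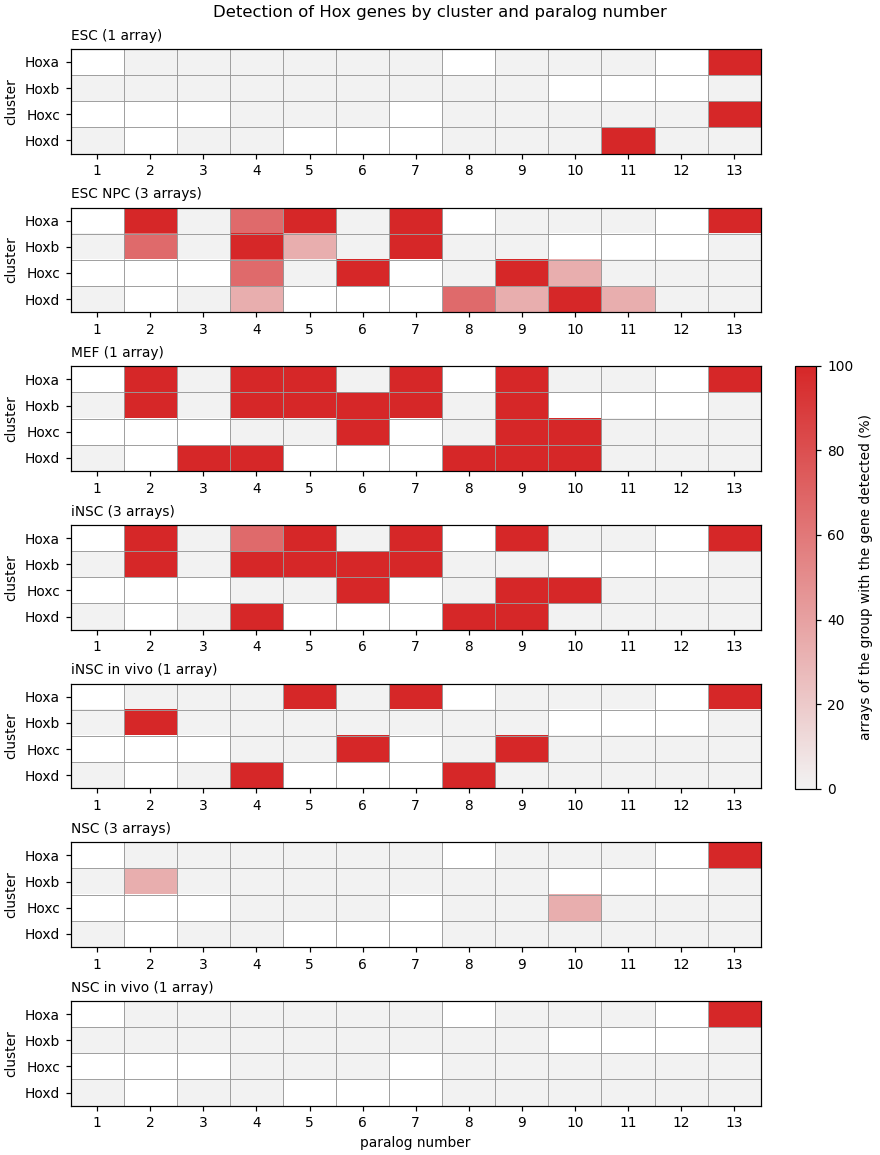
Detection of Hox genes by cluster (rows) and paralog number (columns) in each group. Colour gives the share of a group's arrays on which a gene was detected in percent, pale grey is 0% and white marks a position without a gene or probe. The iNSC and MEF panels hold detected genes in all 4 clusters, with gaps between them such as Hoxa6, Hoxb8 and Hoxc8, and the NSC panels are nearly empty.

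The genes detected on every iNSC array numbered 16. They were Hoxa2, Hoxa5, Hoxa7, Hoxa9 and Hoxa13 of the a cluster, Hoxb2, Hoxb4, Hoxb5, Hoxb6 and Hoxb7 of the b cluster, Hoxc6, Hoxc9 and Hoxc10 of the c cluster, and Hoxd4, Hoxd8 and Hoxd9 of the d cluster. By position, they covered 4 of 11 genes of paralogs 1 to 4, 7 of 11 genes of paralogs 5 to 8, and 5 of 16 genes of paralogs 9 to 13. The MEF array detected 20 genes, which were these 16 and Hoxa4, Hoxb9, Hoxd3 and Hoxd10. Hoxb1, Hoxb3, Hoxb8, Hoxb13, Hoxc8, Hoxc11, Hoxc12, Hoxd12 and Hoxd13 were among the genes below background on all 13 arrays.

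Hoxa13, which patterns the digits and the genital tubercle, was read by 3 probes that disagreed. Probe 3 was detected on all 13 arrays, at 5.04 to 5.15 on NSC, 5.15 to 5.35 on iNSC, 4.95 on MEF and 5.61 on ESC, and probes 1 and 2 were detected on none. The detection of this gene therefore rests on 1 probe of 3 in every group, and so does its place in the gene counts above. Hoxa9 had a probe that was never detected and a pair that were detected on each iNSC array. Hoxc10 had a pair of probes, of which probe 1 was also detected on NSC clone 2.

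The comparison of iNSC with NSC sets cells made from fibroblasts against neural stem cells under culture. In iNSC, 17 of the 50 Hox probes were higher and 0 lower, in limma at the adjusted threshold. That is 34% of the 50 probes higher, where 6.08% of all named probes were higher and 5.34% lower. Untested probes were counted as not called in both shares. Only 3 Hox probes were detected on any NSC array, so most had no signal to fall from, and the 0 lower says little. The 17 probes stand for 15 genes, and the members called higher were 6 of 17 Hoxa probes, 5 of 13 Hoxb probes, 3 of 11 Hoxc probes and 3 of 9 Hoxd probes. The median difference over all 50 probes was 0.10, against 0.01 over all named probes. The median over the 11 probes of paralogs 5 to 8 was 1.67, against 0.13 for paralogs 1 to 4 and 0.05 for paralogs 9 to 13. Tested were 7 of these 11 probes, 8 of 16 for paralogs 1 to 4 and 11 of 23 for 9 to 13. The medians thus depend on the share of undetected probes and do not compare the sizes of the called differences. Hoxc9, of paralogs 9 to 13, was among the largest of those.

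Fibroblast markers were read on the same arrays. Of 7 such genes, MEF detected 6 and the iNSC arrays 0, and of their 8 probes 0 were higher and 1 was lower in iNSC than in NSC. The mean level of the list was 9.88 on MEF, 4.34 to 4.44 on iNSC and 4.49 to 4.57 on NSC. How these markers relate to the Hox differences was not tested. Sex-linked transcripts did differ between the groups. Xist, the transcript of the inactive X chromosome, was detected on all NSC arrays and on no iNSC array, and the Y-linked Eif2s3y on all iNSC arrays and on no NSC array, so the sex of the cells and the group cannot be told apart.

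Hoxa7, a trunk gene that patterns thoracic vertebrae, was read at 10.97, 11.24 and 11.01 on the iNSC arrays and at 4.63, 4.40 and 4.39 on NSC. Every iNSC clone lay far above every NSC clone, in which the probe was not detected. The difference was 6.60 ± 0.13 (SE, 3 clones against 3, adjusted p = 4.19e-09 in limma), and since NSC gave only a bound, iNSC was at least 71.6-fold higher. Such a bound sets the iNSC mean against the lowest level of a detected probe on each NSC array.

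Hoxa5, which patterns the neck and the lung, was read at 10.42, 10.13 and 10.51 on iNSC and at 4.18, 4.24 and 4.23 on NSC. The groups did not overlap, and iNSC were at least 43.5-fold higher, with a log2 difference of 6.14 ± 0.14 (SE, adjusted p = 6.16e-09 in limma). Hoxc9, which sets thoracic identity of motor neurons in the spinal cord, was read at 10.41, 10.40 and 10.25 on iNSC. On NSC it read 4.19, 4.28 and 4.24 and was not detected, so iNSC were at least 43.5-fold higher (difference 6.12 ± 0.10, adjusted p = 2.29e-09 in limma).

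Hoxc6, a gene of the brachial spinal cord and forelimb level, was read at 9.40, 9.56 and 9.31 on iNSC and at 4.22, 4.21 and 4.22 on NSC, at least 22.8-fold higher (difference 5.20 ± 0.09, adjusted p = 2.29e-09 in limma). Hoxd8, a trunk gene of the d cluster, was read at 8.65, 8.98 and 8.74 on iNSC and at 4.21, 4.21 and 4.23 on NSC, at least 14.7-fold higher (difference 4.57 ± 0.11, adjusted p = 1.01e-08 in limma). Both genes were undetected in all NSC clones and detected in all iNSC clones. Hoxb7, a trunk gene of the b cluster, was read at 8.35, 8.67 and 8.37 on iNSC and at 4.32, 4.27 and 4.30 on NSC, at least 11.7-fold higher (difference 4.17 ± 0.12, adjusted p = 3.71e-08 in limma).

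**Figure D2:**
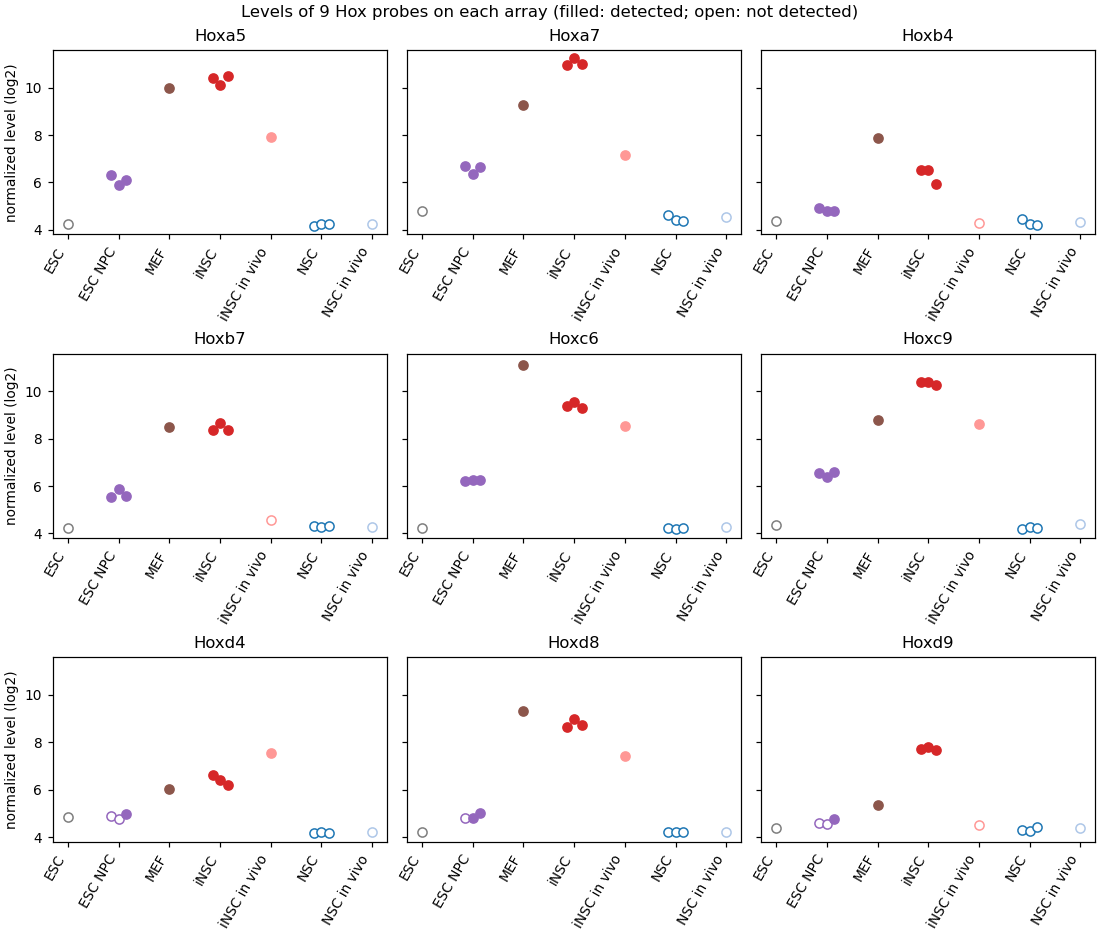
Normalized level (log2) of 9 Hox probes on each of the 13 arrays, by group, with filled points where the probe was detected and open points where it was not. Each point is 1 array. The iNSC arrays lie above the NSC arrays in each panel, and ESC NPC lie between them.

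The 250 bases before the annotated start of 4 genes of this set are shown as examples. These members, from the a, b and d clusters, were called higher than NSC in both iNSC and ESC NPC. Hoxa2, Hoxd4 and Hoxd9 were called so as well and have a window, but are not printed. They are RefSeq sequences of the build GRCm38.p6 on the coding strand, and capitals mark the homeodomain core TAAT on either strand (ATTA when read from the other strand). Hoxa5 lies on the minus strand at chr6:52204588-52204837, Hoxa7 on the minus strand at chr6:52218574-52218823, Hoxb4 on the plus strand at chr11:96318017-96318266 and Hoxd8 on the plus strand at chr2:74704365-74704614.
Hoxa5: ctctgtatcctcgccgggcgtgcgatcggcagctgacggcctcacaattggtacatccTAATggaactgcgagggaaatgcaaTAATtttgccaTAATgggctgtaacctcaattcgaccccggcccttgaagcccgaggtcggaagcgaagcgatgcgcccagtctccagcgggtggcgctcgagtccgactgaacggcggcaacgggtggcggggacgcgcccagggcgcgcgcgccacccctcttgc
Hoxa7: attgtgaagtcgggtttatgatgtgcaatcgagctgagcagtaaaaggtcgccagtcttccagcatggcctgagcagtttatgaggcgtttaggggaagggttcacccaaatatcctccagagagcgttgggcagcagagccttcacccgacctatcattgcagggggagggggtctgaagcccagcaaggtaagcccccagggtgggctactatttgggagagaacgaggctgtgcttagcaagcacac
Hoxb4: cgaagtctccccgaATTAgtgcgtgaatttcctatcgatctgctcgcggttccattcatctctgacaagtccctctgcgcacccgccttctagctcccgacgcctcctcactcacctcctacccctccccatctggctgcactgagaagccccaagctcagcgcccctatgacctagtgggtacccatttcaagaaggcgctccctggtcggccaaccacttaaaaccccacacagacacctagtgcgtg
Hoxd8: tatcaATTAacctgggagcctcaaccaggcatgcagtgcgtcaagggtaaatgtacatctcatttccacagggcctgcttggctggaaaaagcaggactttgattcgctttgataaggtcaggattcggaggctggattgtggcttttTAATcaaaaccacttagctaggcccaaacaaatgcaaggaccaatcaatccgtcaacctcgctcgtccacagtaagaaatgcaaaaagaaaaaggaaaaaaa
The core was found at 3 places in the Hoxa5 window, 1 in Hoxb4 and 2 in Hoxd8, and at 0 in Hoxa7. RefSeq windows matched 22 of the 38 Hox genes, in 24 windows, and 18 of these 24 (75%) held the core, against 54.9% of all 32851 windows. The longer motif TGATNNAT, bound by pairs of a Pbx and a Hox protein, was found on either strand in 4 of the 24 windows (16.7%), those of Hoxa2, Hoxb1, Hoxb8 and Hoxd11, against 7.68% of all windows. A match of this motif can overlap a match of the core, and such overlaps were not removed. A match describes the letters of the window and is not a bound site.

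The other called genes of this comparison had smaller differences. Hoxd9, at the trunk to tail border, was at least 7.04-fold higher in iNSC, and Hoxd4, a gene of the hindbrain to neck border, at least 2.82-fold. Hoxa2, which patterns hindbrain and pharyngeal arch tissue, was at least 2.57-fold higher by probe 1 and at least 4.56-fold by probe 2. In the b cluster, Hoxb4, a gene of the hindbrain to spinal cord border also known from blood stem cells, was at least 2.66-fold higher, Hoxb5 at least 2.23-fold and Hoxb6 at least 1.35-fold. Hoxa9 was at least 1.35-fold higher by probe 1 and at least 1.27-fold by probe 2, and Hoxc10 at least 1.18-fold by its probe 2.

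Hoxb2, a hindbrain gene, was detected on 1 of 3 NSC arrays. It read 6.30, 6.58 and 6.92 on iNSC and 4.57, 4.98 and 4.56 on NSC, a difference of 1.90 ± 0.20 (SE, adjusted p = 0.000187 in limma). The groups did not overlap. Among the members that missed the threshold, Hoxa4 differed by 0.46 ± 0.15 (adjusted p = 0.0641 in limma) and Hoxc10 by 0.49 ± 0.19 with its probe 1 (adjusted p = 0.114 in limma). Hoxa13 probe 3 differed by 0.15 ± 0.09 (adjusted p = 0.350 in limma).

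ESC NPC were also set against NSC, to compare progenitors made from pluripotent cells with neural stem cells. In ESC NPC, 12 of the 50 Hox probes were higher and 0 lower, where 17.2% of all named probes were higher and 17.9% lower. The share of the 50 Hox probes called higher was 24%. Of the 12, 8 were detected on every ESC NPC array, a count added after the data were seen. Hoxd4, Hoxd9 and Hoxa2 probe 1 were detected on 1 of the 3 ESC NPC arrays. Without background correction, or with an offset of 50, 10 Hox probes were called. With median scaling, 33.1% of all calls of this comparison were higher rather than 49.0%, and 12 Hox probes were again called, all higher. The NSC arrays are the same as in the comparison above, so the 0 lower says little here too. The ESC NPC arrays also differed from NSC in sex-linked transcripts, with Eif2s3y and without Xist, and they detected 3 of the 7 fibroblast markers, of which 5 of 8 probes were higher than in NSC. The part of these differences was not tested. The called genes were Hoxa2, Hoxa5, Hoxa7, Hoxb4, Hoxb7, Hoxc6, Hoxc9, Hoxd4, Hoxd8, Hoxd9 and Hoxd10.

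Hoxc9 read 6.56, 6.38 and 6.59 on ESC NPC, above the NSC values given before, and was at least 3.03-fold higher (difference 2.28 ± 0.10, adjusted p = 1.03e-07 in limma). Hoxa7 read 6.68, 6.35 and 6.65 and was at least 3.14-fold higher (difference 2.09 ± 0.13, adjusted p = 1.18e-06 in limma). Hoxc6 read 6.20, 6.25 and 6.27 and was at least 2.51-fold higher (difference 2.02 ± 0.09, adjusted p = 1.61e-07 in limma). None of the 3 genes overlapped with NSC. Hoxa5 read 6.33, 5.88 and 6.11 and was at least 2.29-fold higher (difference 1.89 ± 0.14, adjusted p = 3.48e-06 in limma). Hoxb7 read 5.54, 5.86 and 5.58 and was at least 1.68-fold higher (difference 1.36 ± 0.12, adjusted p = 1.29e-05 in limma). Hoxa2 probe 2 read 5.19, 5.14 and 5.59 on ESC NPC and 4.26, 4.27 and 4.46 on NSC, at least 1.32-fold higher (difference 0.98 ± 0.17, adjusted p = 0.00103 in limma). These also lay above all NSC arrays.

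Hoxd10, which acts in the hindlimb and lumbar spinal cord, read 4.92, 5.18 and 5.26 on ESC NPC and 4.32, 4.27 and 4.28 on NSC. It was detected on all ESC NPC arrays, on no NSC array and on no iNSC array, and was at least 1.16-fold higher in ESC NPC than in NSC (difference 0.83 ± 0.10, adjusted p = 0.000113 in limma). Hoxb4 and Hoxd9 passed the threshold with differences of 0.54 ± 0.16 (adjusted p = 0.0182 in limma) and 0.31 ± 0.10 (adjusted p = 0.0225 in limma), but no fold is given because their ESC NPC levels stood at the limit of detection. The Hoxb4 call was lost without NSC clone 3 (adjusted p = 0.0506) or ESC NPC clone 1 (0.0597). That of Hoxd9 was lost without NSC clone 1 (0.0636), NSC clone 2 (0.0694) or ESC NPC clone 3 (0.0848).

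**Figure D3:**
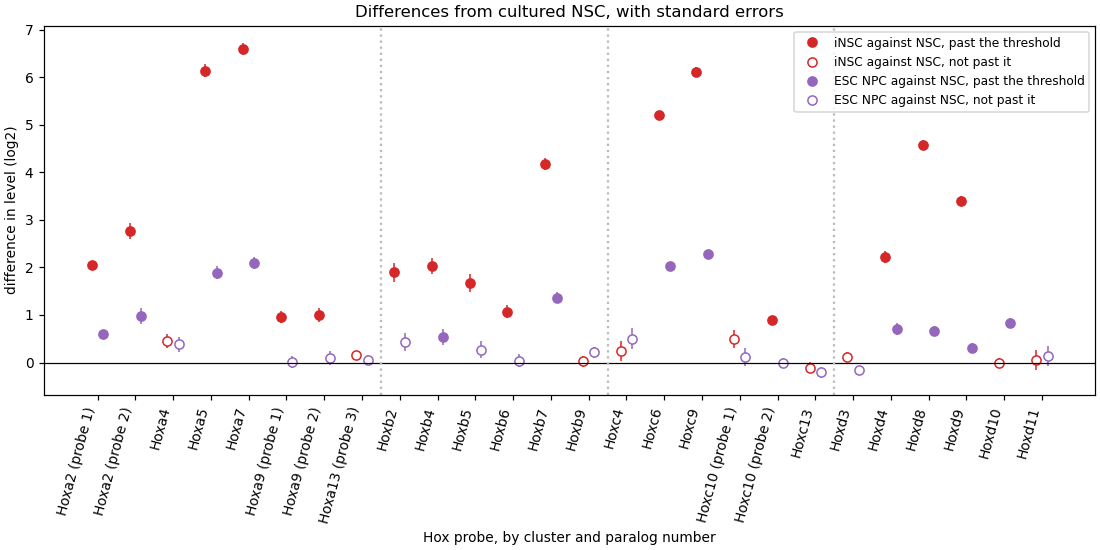
Differences of iNSC (red) and ESC NPC (purple) from NSC in log2 for the 26 tested Hox probes, ordered by cluster and paralog number, with standard errors. Filled points passed the threshold. The iNSC points reach 6.60 at Hoxa7, while those of ESC NPC reach 2.28 at Hoxc9.

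Set directly against ESC NPC, iNSC had 18 Hox probes higher and 1 lower of 50, where 19.2% of all named probes were higher and 17.7% lower. With median scaling 65.2% of all calls were higher rather than 52.0%. Both groups were also used above, so these differences are not independent of the earlier ones. With the array values above, Hoxa7 was higher in iNSC by 4.51 ± 0.13 (adjusted p = 6.17e-09 in limma), or 22.8-fold, and Hoxa5 by 4.25 ± 0.14 (adjusted p = 1.51e-08 in limma). Hoxc9 was 14.3-fold and Hoxc6 9.07-fold higher in iNSC. No array of one group reached those of the other.

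Hoxd8 read 4.81, 4.82 and 5.02 on ESC NPC, with detection on 2 of 3 arrays, against 8.65 to 8.98 on iNSC, and was higher in iNSC (difference 3.91 ± 0.11, adjusted p = 6.09e-09 in limma). Hoxd9 read 7.71, 7.80 and 7.66 on iNSC and 4.59, 4.54 and 4.77 on ESC NPC, where 1 of 3 arrays detected it, so that the difference of 3.09 ± 0.10 (adjusted p = 1.48e-08 in limma) rests partly on values not above background. Hoxd10 was the member called the other way. It read 4.27, 4.24 and 4.34 on iNSC, below background, and was at least 1.13-fold higher in ESC NPC (iNSC minus ESC NPC -0.84 ± 0.10, adjusted p = 9.50e-05 in limma). Hoxd3 passed the threshold as higher in iNSC, but it was below background on all 6 arrays, and the call was lost without iNSC clone 1 or any ESC NPC clone.

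ESC NPC were also set against the ESC array, from whose cell type they derive. Of the 50 probes, 9 were higher and 2 lower in ESC NPC, with 12.8% of all named probes higher and 14.4% lower. Hoxc9 read 4.35 on ESC, below background, and was at least 2.75-fold higher in ESC NPC (difference 2.17 ± 0.14, adjusted p = 2.37e-06 in limma). Hoxa7 was at least 2.84-fold, Hoxc6 at least 2.28-fold and Hoxa5 at least 2.07-fold higher. The higher calls of Hoxd8 and both Hoxa2 probes were lost without background correction and with an offset of 50. Hoxc13, a gene of hair follicle and tail, ran the other way. It read 5.63 on ESC and 4.51, 4.30 and 4.41 on ESC NPC, where it was not detected, and ESC was at least 1.75-fold higher (ESC NPC minus ESC -1.22 ± 0.16, adjusted p = 0.000253 in limma). Hoxa13 probe 3 was lower in ESC NPC by -0.45 ± 0.13 (adjusted p = 0.0220 in limma), a call lost without ESC NPC clone 3 (adjusted p = 0.0547).

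The iNSC were next set against MEF, the cell type they were induced from. Of 50 Hox probes, 5 were higher and 10 lower in iNSC, with 16.5% of all named probes higher and 14% lower. The median difference over the 50 probes was 0.03, equal to the 0.03 over all named probes. The called shares of the 50 were 10% higher and 20% lower. All 4 called Hoxb probes were lower in iNSC, and the 3 called Hoxa probes, of the genes Hoxa2 and Hoxa7, were higher. The c and d clusters were mixed, with 1 higher and 3 lower each. MEF was 1 array, and Hoxa5 and Hoxb7 were not called, so these counts do not describe whole clusters. The MEF array differed from the iNSC clones in sex-linked transcripts as NSC did, with Xist detected and Eif2s3y not. Sex and group cannot be told apart here either, and these differences do not measure change from the clones' own starting cells.

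Hoxc10, a gene of the lumbar and hindlimb level, was among the lower genes. Probe 2 read 8.44 on MEF and 5.30, 4.97 and 5.17 on iNSC, with clone 2 not detected, and the means differed 9.77-fold (iNSC minus MEF -3.29 ± 0.14, adjusted p = 1.36e-07 in limma). Probe 1 read 8.09 on MEF and 5.41, 5.37 and 5.21 on iNSC, and MEF was 6.80-fold higher. Both probes thus ran the same way. Hoxc6 read 11.11 on MEF and was 3.22-fold higher there than in iNSC (iNSC minus MEF -1.69 ± 0.13, adjusted p = 6.03e-06 in limma).

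In the b cluster, Hoxb4 read 7.88 on MEF and 6.51, 6.54 and 5.92 on iNSC, 2.94-fold higher in MEF (iNSC minus MEF -1.56 ± 0.23, adjusted p = 0.000427 in limma). Hoxb6 was 3.26-fold, Hoxb5 2.88-fold and Hoxb2 1.94-fold higher in MEF. Each iNSC array lay below MEF for these genes. With the authors' deposited values, Hoxb2 (adjusted p = 0.111) and Hoxb5 (0.0672) missed the threshold. Hoxb7 read 8.51 on MEF, within the range of the iNSC clones, and did not pass the test (iNSC minus MEF -0.05 ± 0.17, adjusted p = 0.862 in limma).

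Higher in iNSC than in MEF were Hoxd9, Hoxa7, Hoxc9 and Hoxa2. Hoxd9 read 5.36 on MEF against 7.66 to 7.80 on iNSC, a 5.17-fold difference (2.37 ± 0.14, adjusted p = 1.08e-06 in limma). Hoxa7 read 9.26 on MEF and was 3.51-fold higher in iNSC (1.81 ± 0.18, adjusted p = 3.43e-05 in limma). Hoxc9 read 8.80 on MEF and was 2.94-fold higher in iNSC (1.56 ± 0.14, adjusted p = 1.42e-05 in limma). In these genes all iNSC clones lay above MEF. Hoxa5 read 9.98 on MEF and differed by 0.37 ± 0.19 (adjusted p = 0.149 in limma). Hoxd3 and Hoxd10 were detected on MEF and on no iNSC array, with MEF at least 1.06-fold and at least 1.42-fold higher, and the Hoxd3 call was lost without iNSC clone 2 (adjusted p = 0.0544) or clone 3 (0.0632). Hoxd8 was called 1.46-fold higher in MEF, but with median scaling, which shifts the median of all tested probes in this comparison by 0.19, its sign turned (iNSC minus MEF 0.04, adjusted p = 0.866).

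**Figure D4:**
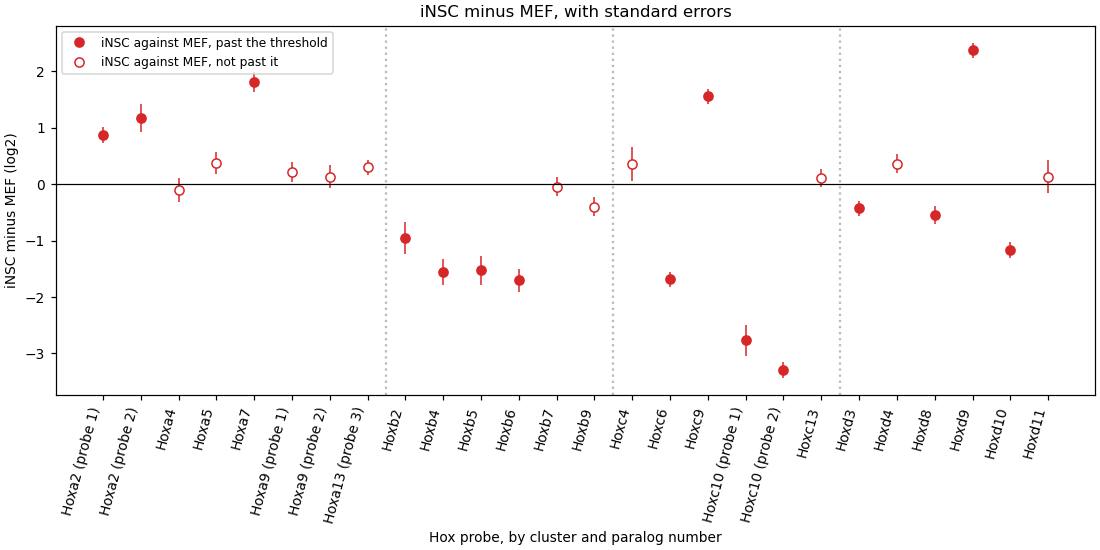
iNSC minus MEF in log2 for the 26 tested Hox probes with standard errors, where 3 iNSC clones were set against 1 MEF array. Filled points passed the threshold. Hoxd9 is highest at 2.37 and Hoxc10 probe 2 lowest at -3.29.

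MEF and ESC had 1 array each and were compared by size only. Past 2-fold, 16 Hox probes were higher in MEF and 1, that of Hoxc13, was lower, where 12.1% of all named probes were higher and 13.4% lower. All 16 were undetected on ESC, and undetected levels entered as read. The bounds of Hoxa2 (at least 1.28-fold by probe 1 and 1.83-fold by probe 2), Hoxd4 (at least 1.98-fold) and Hoxd10 (at least 1.32-fold) did not reach 2-fold. The total of 17 became 25 with the deposited values and 12 without background correction. Hoxc6 read 11.11 on MEF and 4.25 on ESC, which gives at least 66.5-fold. Hoxa5 was at least 30.5-fold, Hoxd8 at least 19.4-fold and Hoxa7 at least 18.5-fold higher on MEF.

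The in vivo arrays asked whether the state in brain differs from culture. In iNSC in vivo, 6 Hox probes were higher and 15 lower than in cultured iNSC, with 18.5% of all named probes higher and 23.2% lower. With median scaling 18.6% of all calls were higher rather than 44.4%. Beside these values, all 4 microglia genes with a probe were detected on both in vivo arrays and on no NSC, iNSC or ESC NPC array. The mean level of this list was 8.89 for NSC and 9.04 for iNSC in vivo, compared with 4.28 to 4.46 on the arrays of these 3 cultures. Fibroblast markers were higher in vivo too, with 5 of 8 probes in iNSC and 4 of 8 in NSC. The iNSC in vivo array detected 3 of the 7 fibroblast genes and NSC in vivo 4, at mean levels of 6.35 and 6.19, with Postn, Col1a1 and Lum below background on both. Of 8 mature oligodendrocyte probes, 4 were higher in iNSC in vivo and 5 in NSC in vivo, of 10 neuron probes 5 and 4, and of 3 endothelial probes 1 and 3, with 0 lower in each of these lists. Of the 9 tested neural stem marker probes, 8 were lower in vivo in each line. In such bulk samples, fewer cells of a type and less RNA per cell cannot be told apart, and the part of other cells in the Hox differences was not tested. The NSC in vivo array detected both Xist and Eif2s3y, unlike cultured NSC, on which Eif2s3y was not detected.

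The iNSC in vivo array still detected Hoxa5, Hoxa7, Hoxb2, Hoxc6, Hoxc9, Hoxd4 and Hoxd8, beside Hoxa13. Hoxc9 read 8.61 in vivo against 10.25 to 10.41 in culture, 3.35-fold lower (in vivo minus culture -1.74 ± 0.14, adjusted p = 2.17e-06 in limma). Hoxc6 read 8.54, 1.84-fold lower than in culture, and Hoxd8 7.42, 2.58-fold lower. Hoxa5 read 7.90, 5.48-fold lower (-2.45 ± 0.19, adjusted p = 2.43e-06 in limma), and Hoxa7 7.18, 14.8-fold lower (-3.89 ± 0.18, adjusted p = 5.87e-08 in limma). For all 5 genes the in vivo value lay below all 3 cultured clones.

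Hoxb7 and Hoxd9 were not detected in iNSC in vivo, and were at least 3.57-fold and at least 2.14-fold higher in cultured iNSC. Hoxb7 read 4.55 in vivo (in vivo minus culture -3.92 ± 0.17, adjusted p = 4.23e-08 in limma) and Hoxd9 4.52 (-3.21 ± 0.14, adjusted p = 4.00e-08 in limma). Hoxa2, Hoxb4, Hoxb5, Hoxb6, Hoxa9 and Hoxc10 were also called lower and undetected in vivo. Apart from Hoxa2 probe 2, at least 1.39-fold higher in culture, their cultured levels did not stand above the detection limit of the in vivo array, so no fold is given. That limit, the lowest level of a detected probe, was 6.63 for iNSC and 6.56 for NSC in vivo, compared with 4.60 to 5.08 on the other arrays.

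Of the 6 probes called higher in iNSC in vivo, 2 were detected there, Hoxd4 and Hoxa13 probe 3. With median scaling, Hoxa13 probe 3 was the 1 of these 6 still called higher. Hoxd4 read 7.55 in vivo and 6.64, 6.40 and 6.18 in culture, a difference of 1.14 ± 0.17 (adjusted p = 0.000242 in limma). With median scaling its sign turned, to -0.62 (adjusted p = 0.0159), and the median of all tested probes in this comparison moved by -0.64. Hoxb2 read 6.98 in vivo and was not called (0.38 ± 0.28, adjusted p = 0.267 in limma). The other 4 probes called higher, of Hoxa4, Hoxc13, Hoxd3 and Hoxd11, were undetected in vivo, and with median scaling they missed the threshold (adjusted p = 0.722, 0.157, 0.113 and 0.598 in limma). Hoxd11 was also lost without any 1 of the 3 iNSC clones (adjusted p = 0.0560 to 0.111).

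NSC in vivo had 7 Hox probes higher and 0 lower than cultured NSC, with 18.7% of all named probes higher and 23% lower. With median scaling 19.2% of all calls were higher rather than 44.8%. Only Hoxa13 probe 3 among these was detected in vivo, at 7.22 against 5.04 to 5.15 in culture (difference 2.11 ± 0.13, adjusted p = 5.19e-07 in limma). The same probe read 7.52 on iNSC in vivo, against 5.15 to 5.35 on cultured iNSC. The calls of Hoxa4, Hoxb2, Hoxb5, Hoxb6, Hoxc13 and Hoxd11 rest on undetected values. With median scaling, those of Hoxb2, Hoxb5, Hoxb6, Hoxc13 and Hoxd11 missed the threshold. The 3 Hox probes called with that scaling were thus not all among the 7. Hoxb5 was also lost without NSC clone 2 (adjusted p = 0.0624) or clone 3 (0.0548). No other Hox probe was detected on NSC in vivo. Cultured NSC detected only 3 Hox probes on any array, so the 0 lower says little here as well. The difference between the lines in the change from culture to in vivo, a contrast added after the data were seen, was called lower for iNSC in 14 of the 50 Hox probes and higher in 2, where 7.96% of all named probes were lower and 7.45% higher.

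**Figure D5:**
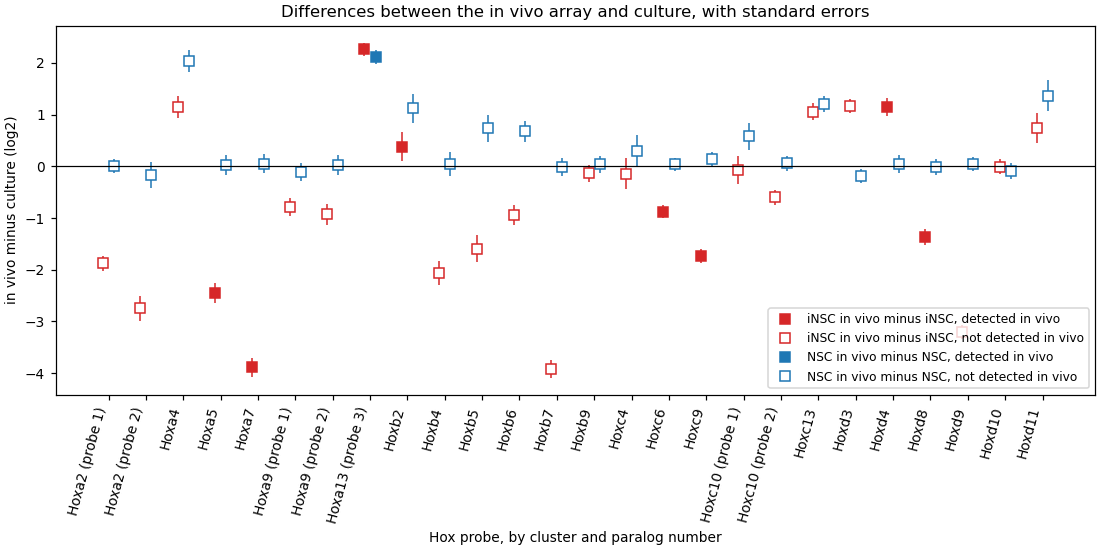
In vivo minus culture in log2 for the 26 tested Hox probes, with standard errors, for iNSC (red) and NSC (blue), each 1 in vivo array against 3 cultured clones. Open squares were not detected in vivo. Filled red squares lie between -3.89 for Hoxa7 and 2.26 for Hoxa13 probe 3, and the 1 filled blue square is Hoxa13 probe 3.

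The in vivo arrays themselves were compared by size only, as each is 1 array. Past 2-fold, 8 Hox probes were higher in iNSC in vivo and 1 lower, with 5.81% of all named probes higher and 5.67% lower. These are differences of levels as read, undetected ones included, and the 9 became 18 with the deposited values and 6 with median scaling. By bounds, Hoxc9, Hoxc6 and Hoxa5 stood past 2-fold. Hoxc9 was at least 4.14-fold higher in iNSC in vivo than in NSC in vivo, Hoxc6 at least 3.95-fold, Hoxa5 at least 2.53-fold, Hoxd4 at least 1.98-fold, Hoxd8 at least 1.81-fold, Hoxa7 at least 1.54-fold and Hoxb2 at least 1.34-fold. The remaining higher probe, of Hoxd3, and the lower probe, Hoxa3 probe 1, were below background on both arrays.

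The median SD between clones over the 50 probes was 0.13 in iNSC, 0.07 in NSC and 0.10 in ESC NPC. Most of these probes were undetected, where the offset narrows the spread. The median of the 3 groups, 0.095, was 0.33 with the deposited values and 0.039 with an offset of 50. Among probes detected on all 3 clones, the widest in iNSC were Hoxb4, with an SD of 0.35 and clone 3 lowest at 5.92, and Hoxb2, with an SD of 0.31 and clone 1 lowest at 6.30. In ESC NPC, Hoxd11 had an SD of 0.46 with detection in 1 clone, and Hoxc4 an SD of 0.45, at 5.53, 5.08 and 4.63, with detection in 2 of the 3 clones.

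Other genes of the Hox system were read from 4 lists. Hox proteins bind DNA with the cofactors Pbx, Meis and Pknox. Of 17 cofactor probes, of which 12 were tested, 4 were higher and 1 lower in iNSC than in NSC, where 6.08% of all named probes were higher and 5.34% lower, with a median difference over the 17 probes of 0.12. Meis1 was higher by 0.74 ± 0.12 (adjusted p = 0.00252 in limma), Pknox1 by 0.70 ± 0.15 and 0.67 ± 0.15 with its pair of probes, and Meis2 was lower (iNSC minus NSC -0.44 ± 0.12, adjusted p = 0.0345 in limma). In ESC NPC against NSC, 5 cofactor probes were higher and 5 lower, where 17.2% of all named probes were higher and 17.9% lower. The Pbx2 probe with the smallest p was higher there by 1.49 ± 0.13 (adjusted p = 1.35e-05 in limma), and Meis2 was lower (-1.20 ± 0.12, adjusted p = 3.00e-05 in limma).

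The caudal factors Cdx1, Cdx2 and Cdx4 switch on trunk Hox genes in the embryo. Cdx2 read 8.32, 8.05 and 8.08 on ESC NPC and 4.23, 4.21 and 4.20 on NSC, at least 9.44-fold higher in ESC NPC (difference 3.93 ± 0.10, adjusted p = 2.45e-09 in limma). It read 5.63 on ESC and was not detected on the iNSC or MEF arrays. Of the 4 caudal probes, 3 were tested, and that of Cdx2 was the only probe called in ESC NPC against NSC. There, 17.2% of all named probes were higher and 17.9% lower. In iNSC against NSC 0 of the 4 were called, where 6.08% of all named probes were higher and 5.34% lower. A list of 4 probes is too short to compare with these shares.

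Polycomb and trithorax proteins keep Hox clusters silent or active. Of 17 probes of such chromatin regulators, 1 was higher and 2 were lower in iNSC than in NSC, with a median of -0.05. Such counts are near the shares of 6.08% and 5.34% of all named probes. The higher was Eed (0.59 ± 0.14, adjusted p = 0.0200 in limma), and both lower were probes of Ezh2, the Polycomb methyltransferase (-0.70 ± 0.15 and -0.51 ± 0.15). In ESC NPC against NSC, 5 were higher and 3 lower, beside 17.2% and 17.9% of all named probes. Cbx7 was higher there by 2.44 ± 0.19 (adjusted p = 5.22e-06 in limma) and Ezh2 by 1.47 ± 0.15.

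Of 20 probes of genes that flank the clusters, 2 were higher and 1 lower in iNSC than in NSC, with a median of 0.01 and again beside 6.08% and 5.34% of all named probes. Skap2, an adaptor protein gene beside the Hoxa cluster, read 11.60, 11.12 and 11.28 on iNSC and 9.52, 8.62 and 9.46 on NSC, a difference of 2.13 ± 0.24 (adjusted p = 0.000261 in limma). It read 9.90 on MEF and 10.65 on iNSC in vivo. Snx11, a sorting nexin gene beside the Hoxb cluster, was lower (-0.50 ± 0.10, adjusted p = 0.00982 in limma). In ESC NPC against NSC, 5 probes of this list were higher and 4 lower, beside 17.2% and 17.9% of all named probes.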

How the data were processed

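RNA was labelled and hybridised to Illumina mouse bead arrays, per the labels' protocols. The deposited table holds a signal intensity and a detection p-value for each probe and array, and the authors' deposited series matrix holds processed values that lie in the range of log2 data. The submitters' processing notes name BeadStudio 3.2, RMA and lumi, with no role or order. Background correction, filters and scaling behind the deposited intensities are not given in the sources used here, and the number of arrays limits the precision.

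Intensities were corrected by normexp from the detection p-values (offset 16), then normalized between arrays by quantiles and taken to log2, in limma 3.58.1 (R 4.3.3). Quantile normalization gives all arrays 1 distribution, so it stretches the low signals of the in vivo arrays. These levels correlated with the deposited ones at r = 0.980 on each array. Genes came from the platform annotation, which gave 1 symbol for 23978 probes and none or several for 1719.

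Probes were tested if detected at p under 0.01 on at least 1 of 13 arrays. All arrays entered a fit of 7 groups with 6 residual and 3.22 prior degrees of freedom. Each probe was kept apart, and the method was tested on simulated data. All Hox probes may be named. Of each comparison of 3 clones against 3, the 6 called members with the largest differences and those called against the majority are given with every array's value. Up to 4 genes of each of the 4 related lists, those with the smallest p, are named. The members and lists were chosen with earlier results of these data known.

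Clone numbers may pair NSC with iNSC. Deviations of same-numbered clones correlated at 0.21, 0.49 and 0.27, and those of other numbers at -0.39 to 0.22. For the other pairs of groups the same-numbered values did not all pass 0.1. The labels do not say that numbers mark a shared animal or day. Alternatives covered background correction, scaling, filters, probe choice, prior, samples in the fit, left-out clones and the replicate block.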

Additional observations from a re-analysis of the deposited data

Results flagged for a closer look

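The change from culture to in vivo was itself compared between the lines, as (iNSC in vivo minus iNSC) minus (NSC in vivo minus NSC), in limma. This test was chosen after seeing the data. It rests on 1 in vivo array a line, and undetected values enter it as measured. Of the Hox probes, 14 passed as lower and 2 as higher. No NSC array, cultured or in vivo, detected these probes, so the contrast mostly repeats the iNSC change.

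Among members detected on the iNSC in vivo array, the contrast was -3.94 ± 0.25 for Hoxa7 (adjusted p = 6.52e-06), -2.49 ± 0.27 for Hoxa5 (adjusted p = 0.000171), -1.89 ± 0.19 for Hoxc9 (adjusted p = 0.000102), -1.35 ± 0.22 for Hoxd8 (adjusted p = 0.00185) and -0.92 ± 0.18 for Hoxc6 (adjusted p = 0.00555). Hoxd4 went the other way, at 1.10 ± 0.25 (adjusted p = 0.00999), but turned to -0.96 with median scaling (adjusted p = 0.0438) and missed the threshold with the deposited values (adjusted p = 0.118).

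The remaining members were undetected on both in vivo arrays. Hoxb7 stood at -3.91, Hoxd9 at -3.25, Hoxb5 at -2.33, Hoxb4 at -2.11 and Hoxb6 at -1.62. Hoxa2 stood at -1.88 with probe 1 and -2.58 with probe 2, Hoxa9 at -0.95 with probe 2 and Hoxc10 at -0.66 with probe 2. Hoxd3 stood at 1.37, with no detected value in either line, and missed the threshold with median scaling (adjusted p = 0.581). The calls of Hoxa9 probe 2 and Hoxc10 probe 2 were lost without some of the clones (NSC 1, NSC 2 or iNSC 3 for Hoxa9, and NSC 1, NSC 3, iNSC 1 or iNSC 3 for Hoxc10), at adjusted p = 0.0514 to 0.0722.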

How the results depend on the processing

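Of 118 called differences of Hox probes, 1898 values were computed under alternative settings, of which 1830 kept direction and call, 65 kept the direction and missed the threshold, and 3 changed sign, all with median scaling. The 3 were Hoxd8 in iNSC against MEF (0.0358), Hoxd4 in iNSC in vivo against iNSC (-0.62) and the contrast of Hoxd4 between the lines (-0.96), and the cause was not tested. The 17 calls of iNSC against NSC kept direction and call under every alternative in which the probe was tested. Counts of called Hox probes stayed within 1.5 times the main count in 6 of the 7 comparisons. The exception was NSC in vivo against NSC, where 7 calls became 3 with median scaling, 14 with no filter on dim probes and 1 when only probes detected on the higher array were counted, a setting added after seeing the data.

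Leaving out each clone in turn gave 17 to 18 calls for iNSC against NSC, 11 to 13 for ESC NPC against NSC and 18 to 19 for iNSC against ESC NPC. With the replicate block, these comparisons had 17, 13 and 19 calls. The block added Hoxb2 in ESC NPC against NSC (adjusted p = 0.0438 against 0.0934) and changed no other call. Hox probes past 2-fold between the in vivo arrays rose from 9 to 18 with the deposited values. The median SD of Hox probes between clones was 0.095 as reported, 0.045 without background correction, 0.039 with an offset of 50 and 0.33 with the deposited values. Median scaling moved the median of all tested probes by -0.15 in ESC NPC against NSC, 0.13 in iNSC against ESC NPC and -0.71 in NSC in vivo against NSC. On the in vivo arrays, low signal over background limits what could be detected.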
